A study of Mus musculus with 12 samples.

Results

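Macrophages hold their identity through a small set of transcription factors, and 8 of them are described here across a dose series of interferon gamma (IFNγ): Spi1, Cebpa, Cebpb, Cebpd, Maf, Runx1, Bhlhe40 and Zeb2. They were taken by gene symbol from the deposited expression table, and all 8 were found, out of 46729 entries. An entry is 1 row of the table, holding a gene or several overlapping genes. All 8 also passed the filter on low values (at least 1 FPKM on average and above 0 in every group), which left 11580 entries. The cells were bone-marrow-derived macrophages of C57BL6 mice, differentiated for 10 days in interleukin-3 and L-929 conditioned medium, which supplies colony-stimulating factor 1. They received no IFNγ, or 0.2, 2 or 20 U/ml of it for 8 h, with 3 libraries in each of the 4 groups. The label of the highest dose gives U without a volume and was read as U/ml. The labels do not say whether the libraries of a group came from separate animals or cultures.

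The table gives 1 FPKM value per group (fragments per kilobase of transcript, scaled to library size), so the spread between libraries is unknown. No difference between doses has a replicate check, and no test was made between doses. Differences are given as log2 ratios of (FPKM + 1), which understate those of low genes, and an entry is called higher or lower where the ratio is at least 1 in size, a 2-fold difference on this scale. Sequencing depth is unknown. RNA came from whole cultures, so a change in the number of cells of a kind and a change of RNA per cell cannot be told apart.

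Lineage factors of this kind work by binding the enhancers that open during myeloid development. PU.1, the product of Spi1, is an ETS-family factor that marks macrophage enhancers, and the C/EBP proteins and RUNX1 bind beside it. C/EBPα directs progenitors toward granulocytes and monocytes, while C/EBPβ and C/EBPδ serve inflammatory and acute-phase gene expression. MAF (c-Maf) is a bZIP factor known for driving Il10 and for holding mature macrophages out of the cell cycle. ZEB2 is a zinc-finger repressor that keeps tissue macrophages in their identity, and BHLHE40 is a basic helix-loop-helix repressor known for restraining Il10. Genes that respond to IFNγ often carry a palindromic site called GAS (TTCNNNGAA) or the ISRE, which IRF proteins bind.

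Promoter sequences from RefSeq (GRCm38.p6) were matched by symbol for 4 of the 8 genes, Cebpa, Cebpb, Runx1 and Zeb2, in 8 windows. The 250 bases before the start are shown for 1 window of each, because the levels of these genes took different courses with dose. Runx1 and Zeb2 have several windows. The 1 shown for each holds a match and does not stand for the others, which are described below. Capitals mark matches to the GAS, to an ISRE pattern (GAAANNGAA), to the E-box bound by BHLHE40 (CACGTG), to a C/EBP site (TTNNGNAAT), to an NF-κB site (GGGANTTCC) and to the PU box (GAGGAAGT), each searched on both strands; no matches in the 8 windows overlapped another motif. The Cebpb window lies at chr2:167688665-167688914 on the plus strand, the Cebpa window at chr7:35119043-35119292 on the plus strand, the Runx1 window at chr16:92826075-92826324 on the minus strand and the Zeb2 window at chr2:45113280-45113529 on the minus strand, inside the span of Zeb2os.
Cebpb: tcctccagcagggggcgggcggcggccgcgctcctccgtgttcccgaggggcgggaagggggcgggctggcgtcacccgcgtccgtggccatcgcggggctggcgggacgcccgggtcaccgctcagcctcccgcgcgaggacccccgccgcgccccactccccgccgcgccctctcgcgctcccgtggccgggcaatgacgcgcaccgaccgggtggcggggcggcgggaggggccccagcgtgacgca
Cebpa: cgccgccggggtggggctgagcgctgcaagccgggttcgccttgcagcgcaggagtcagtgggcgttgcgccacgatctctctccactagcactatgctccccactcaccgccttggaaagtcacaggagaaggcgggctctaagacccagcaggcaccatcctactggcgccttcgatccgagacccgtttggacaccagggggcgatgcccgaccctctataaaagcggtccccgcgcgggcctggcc
Runx1: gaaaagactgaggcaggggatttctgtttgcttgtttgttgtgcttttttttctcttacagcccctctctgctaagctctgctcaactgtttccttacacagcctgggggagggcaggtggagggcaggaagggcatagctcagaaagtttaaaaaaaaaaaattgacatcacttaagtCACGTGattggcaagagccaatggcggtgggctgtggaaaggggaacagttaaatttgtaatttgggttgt
Zeb2: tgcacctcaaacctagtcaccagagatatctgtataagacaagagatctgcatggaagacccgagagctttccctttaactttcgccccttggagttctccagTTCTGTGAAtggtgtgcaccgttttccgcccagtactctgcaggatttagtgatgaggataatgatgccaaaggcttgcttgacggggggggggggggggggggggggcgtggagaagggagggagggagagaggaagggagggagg

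The Cebpb and Cebpa windows held none of these letter patterns. They were rich in G and C, at 81.6% and 66.4% against a median of 52.4% over the 32851 windows of the RefSeq table, and held 41 and 22 CG pairs against a median of 6. The Runx1 window shown, of the farther upstream of its RefSeq starts, was at 45.6%. It held an E-box from position -71 to -66, counted back from the RefSeq start. In GENCODE M21 the gene reaches to 92826149, so this E-box lies inside the gene by that annotation. The second Runx1 window was at 67.6% and held none of the patterns. The Zeb2 window shown held a GAS match, TTCTGTGAA, from -147 to -139, which the third, overlapping window shares, and the first Zeb2 window held a C/EBP match on the opposite strand, ATTGCAAAA. The fourth Zeb2 window held none. Among all windows, 7.02% held a GAS match, 7.13% the ISRE pattern, 6.02% the E-box, 10.2% the C/EBP pattern, 1.43% the NF-κB pattern and 2.44% the PU box. A match is a match of letters and is no evidence of binding.

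The cells carried the RNA of macrophages. Of 13 macrophage markers, 12 were measured above 0 in every group, with a summed level between 8959 and 9924 FPKM over the groups. Ctss, Tyrobp and Cd68 made up most of this sum, at 4000, 2311 and 1814 FPKM untreated, so it does not show the course of the others. At 20 U/ml against untreated 1 of the 12 was higher, Fcgr1 (348 against 32.3 FPKM), and 1 lower, Cx3cr1 (5.16 against 21.3). Of all entries, 6.51% were higher and 2.94% lower. Lyz2, the lysozyme gene, was listed at 0 in 3 groups and at 7449 FPKM at 20 U/ml, and an exact 0 of so abundant a gene can be a failed estimate. Among entries that average 1 FPKM or more, 272 were listed at 0 in some group, so a marker listed at 0 here is not shown to be absent. Of 13 markers of T and NK cells, 12 stayed under 1 FPKM throughout, with Cd3e, Cd3g, Trac, Ncr1, Nkg7 and Gzma listed at 0. So did 5 of 8 B cell markers, with Pax5 and Blk among those listed at 0. The same held for 9 of 10 mast cell and basophil markers, with Tpsb2 and Tpsab1 listed at 0, 8 of 13 neutrophil markers, with Retnlg listed at 0, 6 of 9 dendritic cell markers, 6 of 8 erythroid and megakaryocyte markers, with Hbb-bt among those listed at 0, and 8 of 12 stromal and endothelial markers. Osteoclast markers were present, with 1 of 8 under 1 FPKM.

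Across the 8 factors the dose courses differed. Spi1, Cebpb and Runx1 had their highest value at 20 U/ml, Cebpa, Cebpd and Bhlhe40 theirs in untreated cells, and Maf and Zeb2 theirs at 0.2 U/ml. Only Bhlhe40 and Maf differed by 2-fold or more in any comparison made: Bhlhe40 was lower at 20 U/ml than in untreated cells, and Maf was lower at 2 than at 0.2 U/ml. At 20 U/ml against untreated, 0 of 8 were higher and 1 was lower, beside 6.51% and 2.94% of all entries. At 2 U/ml 0 of 8 passed in either direction, beside 2.5% higher and 0.76% lower, and at 0.2 U/ml 0 of 8, beside 5.23% and 0.328%. Equal-sum scaling gave 323 entries higher and 96 lower at 0.2 U/ml against 606 and 38 as deposited, and upper-quartile scaling gave 629 and 473 at 20 U/ml against 754 and 340. With shares this low, 8 genes are too few for these counts to tell them from the other entries.

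**Figure D1:**
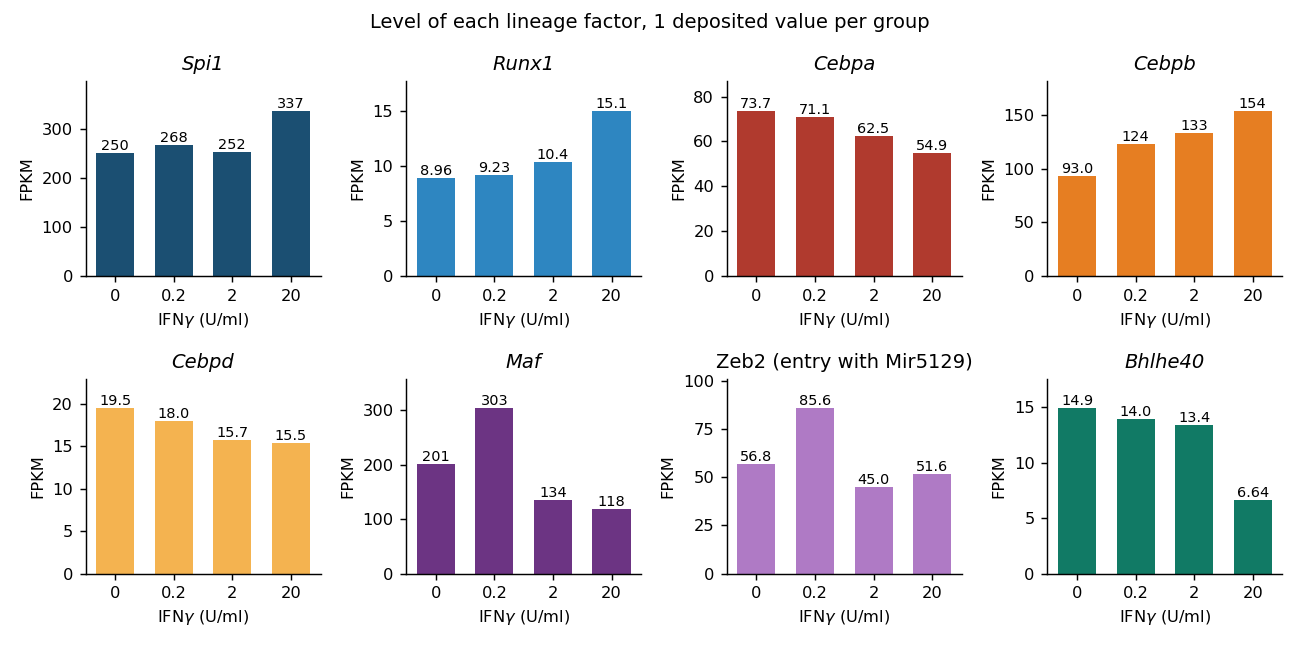
Level of each lineage factor in FPKM (bars, each axis from 0) by IFNγ dose in U/ml, 1 deposited value per group with no error known. Bhlhe40 is between 13.4 and 14.9 up to 2 U/ml and at 6.64 at 20 U/ml, while Maf and Zeb2 are highest at 0.2 U/ml.

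PU.1 is the factor that defines the lineage. Spi1 (chromosome 2, 91082390 to 91115756, plus strand, GRCm38, GENCODE M21) was at 250.5 FPKM untreated and 268, 252 and 337 FPKM with rising dose. The first 3 values lay within 1.07-fold of each other, and the value at 20 U/ml stood above them. Its log2 ratio at 20 U/ml was 0.43, and 18.0% of all entries were at least as far up. Most of that came at the last step, with 0.42 from 2 to 20 U/ml. The ratios at 0.2 U/ml (0.10) and 2 U/ml (0.01) turned to -0.31 and -0.05 at the lowest under other scalings of the groups, so no direction is given for them. Spi1 was an abundant transcript, above 95.1% to 96.4% of the entries in each group.

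Runx1 (chromosome 16, 92601466 to 92826149, minus strand), whose protein pairs with CBFβ to bind DNA, was the least abundant of the 8 in the first 3 groups. It was at 8.96 FPKM untreated and 9.23, 10.4 and 15.1 FPKM with rising dose, higher at each step as deposited, although the ratio at 0.2 U/ml (0.04) was -0.33 under equal-sum scaling. The log2 ratio at 20 U/ml was 0.69, which 10.2% of entries reached, and the step from 2 to 20 U/ml gave 0.49. Cbfb, the gene of its partner, was at 66.1, 61.3, 69.2 and 61.8 FPKM in the same order. Values that were higher at each of the 3 steps were found in 9.28% of all entries and in 2 of the 8 factors, Runx1 and Cebpb.

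The 3 C/EBP genes split. Cebpb (chromosome 2, 167688915 to 167690418, plus strand), an intronless gene that serves macrophage activation, was at 93.0 FPKM untreated and 124, 133 and 154 FPKM with rising dose. Each dose stood above the one before, and the log2 ratios to untreated were 0.41, 0.52 and 0.72. At 2 U/ml 6.54% of entries were at least as far up, and at 20 U/ml 9.69%. With each group scaled to an equal sum, the ratio at 0.2 U/ml was 0.00. Cebpb lies across the start of Tmem189 on the opposite strand, and the entry of Tmem189, Ube2v1 and Gm20431 was at 203, 233, 189 and 189 FPKM; the sources used here do not say whether reads were assigned by strand.

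Cebpa (chromosome 7, 35119293 to 35121928, plus strand), the factor of granulocyte and monocyte commitment, went the other way, at 73.7 FPKM untreated and 71.1, 62.5 and 54.9 FPKM with rising dose. The log2 ratio at 20 U/ml was -0.42, and 15.6% of entries were at least as far down. Cebpd (chromosome 16, 15887286 to 15891031, plus strand), an acute-phase factor, was at 19.5, 18.0, 15.7 and 15.5 FPKM in the same order, with a log2 ratio of -0.32 at 20 U/ml that 21.6% of entries reached. As deposited both were lower at each step, though equal-sum scaling turned the step from 0.2 to 2 U/ml for them and for Bhlhe40. The same shape was seen in 6.54% of all entries and, of the other lineage factors, in Bhlhe40. An exon of Cebpd is overlapped by Spidr on the opposite strand, which was at 7.21, 7.57, 7.40 and 5.97 FPKM with rising dose. The limit on strand given for Cebpb holds for Cebpd as well.

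The balance within the C/EBP family is taken within a group, so a factor that scales a whole group leaves it as it is, which does not hold for quantile normalization. Cebpb stood at 1.26 times the level of Cebpa in untreated cells, 1.74 times at 0.2 U/ml, 2.13 times at 2 U/ml and 2.81 times at 20 U/ml. Against Cebpd the same ratio of levels was 4.77, 6.86, 8.48 and 9.97. Both ratios of levels were higher with each dose. Spi1 stood at 3.40 times the level of Cebpa in untreated cells and at 6.14 times at 20 U/ml.

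**Figure D2:**
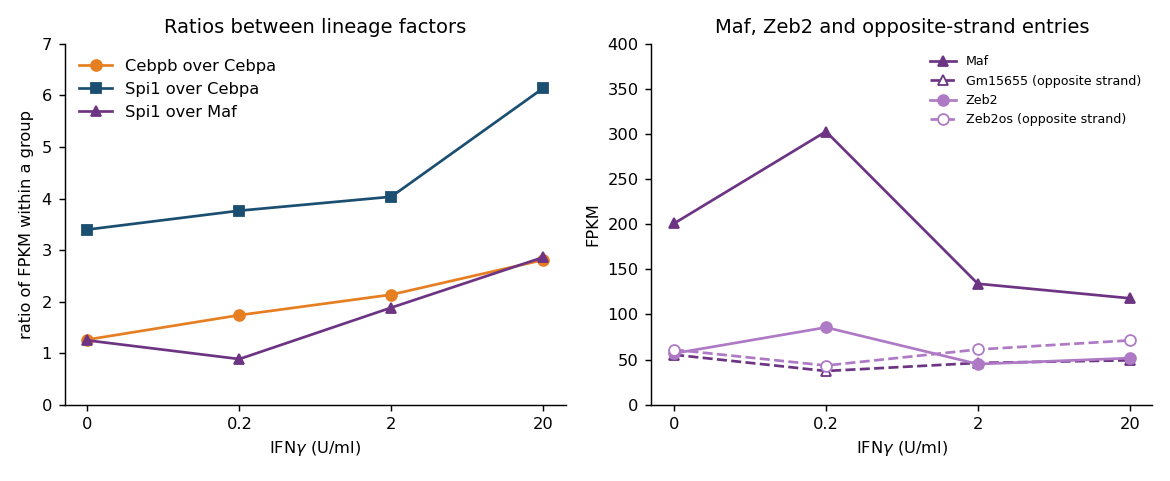
Left, ratios of FPKM between lineage factors within each group, by IFNγ dose in U/ml. Right, FPKM of Maf and Zeb2 (solid lines) and of the entries on the opposite strand (dashed lines). Cebpb over Cebpa goes from 1.26 to 2.81, and at 0.2 U/ml Maf and Zeb2 are at their highest where both opposite-strand entries are at their lowest.

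Maf (chromosome 8, 115682942 to 115707794, minus strand) had the widest range of the 8. It was at 201 FPKM untreated and 303, 134 and 118 FPKM with rising dose. The lowest dose stood above untreated cells, and both higher doses stood below them. The log2 ratios to untreated were 0.59, -0.58 and -0.76, which 11.5%, 3.55% and 5.70% of entries reached in the same direction. From 0.2 to 2 U/ml the log2 ratio was -1.17, which made Maf the only 1 of the 8 lower at this step, beside 6.26% of all entries; 0 of 8 were higher, beside 1.51%. Quantile normalization put this step at -0.94 and equal-sum scaling at -0.80, both short of the 2-fold rule, and equal-sum scaling gave 466 entries higher and 415 lower at this step against 175 and 725 as deposited. Under the same settings the ratio at 0.2 U/ml stayed above 0 and was 0.18 at the lowest.

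Zeb2 (chromosome 2, 44983632 to 45117395, minus strand) had a similar course up to 2 U/ml. It shares its entry with the microRNA gene Mir5129, which lies inside it on the same strand, and the reads of both are 1 value. That entry was at 56.8 FPKM untreated and 85.6, 45.0 and 51.6 FPKM with rising dose. The log2 ratios to untreated were 0.58, -0.33 and -0.14. As with Maf, the value at 0.2 U/ml stood above untreated cells and those at 2 and 20 U/ml below, but Zeb2 was not lower at 20 than at 2 U/ml. Of all entries, 16.6% had this shape, highest at 0.2 U/ml and below untreated at both higher doses, and 31.4% were highest at 0.2 U/ml.

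Both genes have entries on the opposite strand that went the other way at 0.2 U/ml. Gm15655, a noncoding gene that overlaps an exon of Maf, was at 55.3, 37.3, 46.2 and 49.1 FPKM with rising dose. The merged entry of Zeb2os, the antisense gene of Zeb2, was at 60.9, 43.4, 61.1 and 71.2 FPKM. Their log2 ratios at 0.2 U/ml were -0.56 and -0.48. At 2 and 20 U/ml Gm15655 was below untreated cells (-0.25 and -0.17), as Maf was, while the Zeb2os entry was at 0.00 and 0.22. The share of all entries lowest at 0.2 U/ml was not counted. Without knowledge of strand in the counting, reads of a gene and of its antisense partner cannot be told apart where they overlap. The transcripts of Maf and Zeb2 are long, at up to 6360 and 9124 nt. Entries of 5000 to 8000 nt had a median log2 ratio of -0.03 at 0.2 U/ml, and 11.2% of them were at 0.5 or above, and entries from 8000 nt had a median of 0.05 and 16.7%. The part of transcript length and of the composition of the 0.2 U/ml group in the values of Maf and Zeb2 was not tested.

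Bhlhe40 (chromosome 6, 108660629 to 108666925, plus strand) was the factor past the 2-fold rule against untreated cells. It was at 14.9 FPKM untreated and 14.0, 13.4 and 6.64 FPKM with rising dose. The first 3 values were close, and the last stood at 0.446 times the untreated level. The log2 ratio at 20 U/ml was -1.06, with 290 entries of the 11580 at least as far down, and lay between -1.19 and -1.13 under the other pseudocounts and scalings. The step from 2 to 20 U/ml was -0.91 and just short of the rule, where 0 of 8 factors passed in either direction, beside 2.9% of entries higher and 1.11% lower. With a pseudocount of 0.1 it was -1.002 and past the rule. Bhlhe41, its closest relative, was at 19.1, 15.4, 15.2 and 10.5 FPKM, a log2 ratio of -0.81 at 20 U/ml.

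**Figure D3:**
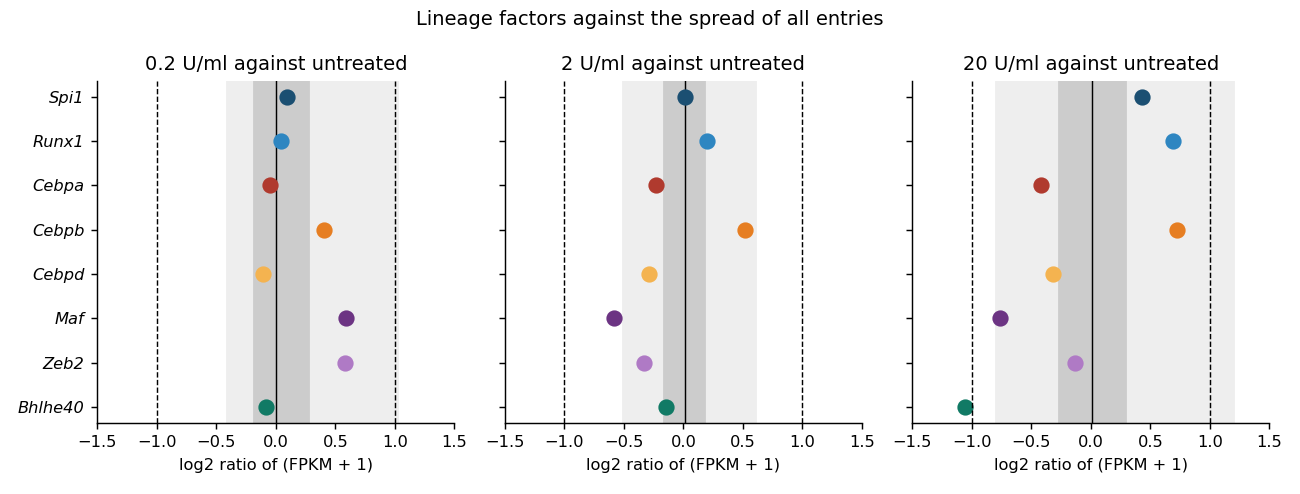
Log2 ratio of (FPKM + 1) of each lineage factor (points) at each dose against untreated cells. Light and dark bands span the 5th to 95th and 25th to 75th percentiles of all 11580 entries, the solid line is their median and dashed lines mark a ratio of 1 in size. Maf at 2 U/ml (-0.58) and Bhlhe40 at 20 U/ml (-1.06) lie outside the light band.

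The order of levels shifted with dose. In untreated cells it ran Spi1, Maf, Cebpb, Cebpa, Zeb2, Cebpd, Bhlhe40 and Runx1, from 250.5 to 8.96 FPKM. Spi1 and Maf, 1.246-fold apart, were closer than any other neighbours in that order. At 0.2 U/ml Maf led with 303 against 268 FPKM for Spi1, a 1.13-fold difference that no replicate error can be set against. At 20 U/ml Spi1 stood at 2.86 times the level of Maf, and Cebpb at 154 FPKM had passed Maf at 118. Runx1 and Bhlhe40, the lowest in untreated cells, changed places, with Bhlhe40 last. At 2 U/ml Maf and Cebpb lay together (134 and 133 FPKM), and at 20 U/ml so did Cebpa and Zeb2, 1.06-fold apart, and Cebpd and Runx1, 1.03-fold apart.

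Over the 8 factors the median log2 ratios to untreated cells were 0.07, -0.19 and -0.23 with rising dose. The median at 0.2 U/ml has no stable direction, at -0.0421, -0.0749 and -0.32 under upper-quartile, quantile and equal-sum scaling, and that at 20 U/ml was -0.37 under each of the first pair. Over all entries, as deposited, the medians were 0.00, 0.01 and 0.01. The comparison lists gave 56 entries, of related families and other lineage regulators, with medians of -0.06, 0.04 and 0.20. They also hold partners, inhibitors and corepressors, such as Cbfb, Id1 and Ctbp1, and not all are particular to myeloid cells. At 20 U/ml 6 of the 56 were higher and 2 lower, beside 6.51% and 2.94% of all entries. The same shares are the background for the counts at 20 U/ml in each list below. These medians describe the values and are not tests, and scaling the groups by their upper quartile moves the median of all entries at 20 U/ml by -0.13.

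Relatives of the 8 factors are taken by family. Among 8 measured ETS relatives of Spi1, 1 was higher at 20 U/ml and 0 lower (median ratio 0.36), beside 6.51% and 2.94% of all entries. Etv6, an ETS repressor, was at 13.2 against 5.92 FPKM (1.04), Elf4 at 0.54 on the log2 scale, Elf1 at 0.51 and Etv3 at 0.42. Spib, the closest relative of Spi1 and a B cell factor, was at 0.0406 FPKM at most. Of 3 measured entries listed with the C/EBP genes, of which Cebpz shares only the symbol, none passed against untreated cells at any dose. The merged entry of Cebpg and Gm44836 was at 37.5, 74.1, 27.4 and 35.5 FPKM with dose, highest at 0.2 U/ml like Maf and Zeb2, and was lower at 2 than at 0.2 U/ml by the 2-fold rule. Cebpz was at 11.4 against 9.48 FPKM (0.24) and Ddit3, which dimerizes with C/EBP proteins, at 72.5 against 74.6 (-0.04), while Cebpe, the granulocyte member, stayed at or under 0.367 FPKM.

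Of the 5 measured MAF relatives, 0 passed the 2-fold rule; the small MAF genes Mafk and Maff had ratios of 0.64 and 0.43 and Bach1, which pairs with small MAF proteins, 0.31. Among 3 RUNX relatives and partners none passed at 20 U/ml, with Runx2 at 1.71 against 2.77 FPKM (-0.48), Runx3 at 2.49 against 2.09 (0.18) and Cbfb at -0.09. The corepressors Ctbp1 (-0.16) and Ctbp2 (0.09, in an entry with Fgfr2), to which ZEB2 binds, were near 0, and Zeb1 stayed at or under 0.179 FPKM.

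Among 13 measured bHLH relatives and TFE factors, 2 were higher and 1 lower at 20 U/ml, beside 6.51% and 2.94% of all entries. Tfec, a TFE factor of macrophages and osteoclasts, was at 7.61 against 19.0 FPKM (-1.22). Max, the partner of MYC, was at 128 against 55.3 (1.20), and the entry of Mxd1, which competes with MYC for MAX, and Gm44292 at 6.85 against 2.52 (1.16). Id1, an inhibitor of bHLH factors, was at 104 against 58.0 (0.84). Among 22 other myeloid factors 3 were higher and 1 lower (median ratio 0.43), beside the same shares of all entries. Batf3, a dendritic cell factor, was at 19.5 against 5.94 FPKM (1.56), Irf5 at 205 against 78.0 (1.38), Nfil3 at 10.6 against 4.34 (1.12) and Egr2, an immediate early factor, at 4.52 against 11.3 (-1.15).

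**Figure D4:**
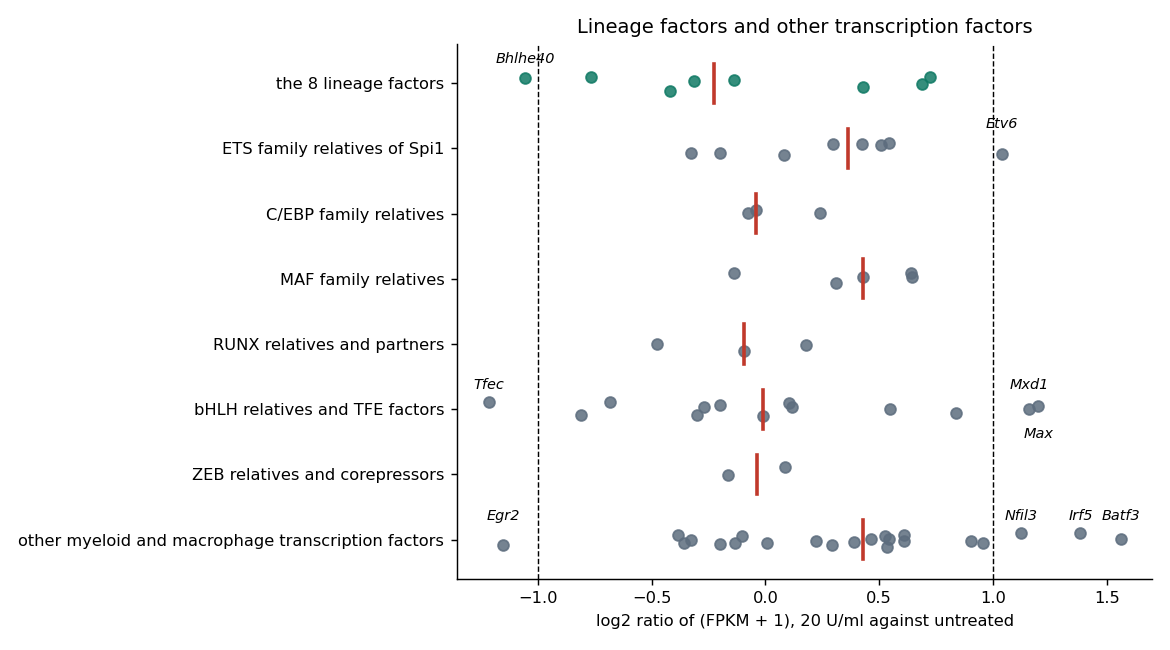
Log2 ratio of (FPKM + 1) at 20 U/ml against untreated cells for the 8 lineage factors (green) and other transcription factors, partners and corepressors (grey) by family. Points are spread vertically at random for legibility. Red bars are medians, dashed lines mark a ratio of 1 in size, and entries past them are named. The median of the 8 lineage factors is -0.23 and that of the other myeloid and macrophage factors 0.43.

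Genes known as targets of these factors lay on both sides. Of 22 measured PU.1 targets, 2 were higher and 2 lower at 20 U/ml (median ratio 0.26), beside 6.51% and 2.94% of all entries. Fcgr1, the high-affinity IgG receptor, was at 348 against 32.3 FPKM (3.39) and Tlr4, the endotoxin receptor, at 24.8 against 10.5 (1.16). Mrc1, the mannose receptor, was at 24.0 against 88.5 (-1.84) and Fcgr2b, the inhibitory IgG receptor, at 29.9 against 70.6 (-1.21), while Cybb, a NADPH oxidase subunit, had a ratio of 0.94. Csf1r, the receptor for colony-stimulating factor 1 and a classical PU.1 and RUNX1 target, was at 349, 340, 416 and 418 FPKM with dose.

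Only 7 of 17 C/EBP targets passed the filter, which also left out Lyz2 because it was listed at 0 in some groups. Of the 7, 2 were higher and 1 lower at 20 U/ml, beside 6.51% and 2.94% of all entries. Nos2, 1 of the 2 higher, passed the filter only through its value at 20 U/ml, so its place in this count is no support. Saa3, an acute-phase gene, was at 9.51 FPKM untreated and 14.4, 20.99 and 130 FPKM with rising dose, and Nos2, which makes nitric oxide, stood at 0.0921, 0.137, 0.547 and 4.88. Fabp4, a fatty acid binding protein, was at 15.6 against 77.6 FPKM (-2.24), with Csf3r at 0.64 and Cd14 at -0.24. The granule genes Mpo and Elane, targets in granulocyte precursors, stayed under 1 FPKM in every group.

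Of 12 measured MAF targets, 4 were higher and 5 lower at 20 U/ml, beside 6.51% and 2.94% of all entries. The complement genes C1qb (238 against 21.4 FPKM, 3.41) and C1qa (167 against 50.1, 1.71) and the receptor gene Axl (35.4 against 5.76, 2.43) were higher. Gas6, the ligand of AXL and MERTK, was at 19.3 against 171 FPKM (-3.08), and Mrc1 was lower as given above. Il10, the cytokine gene that MAF drives and BHLHE40 restrains, was low throughout, at 0.370, 0.405, 0.425 and 1.09 FPKM with dose, and below the filter.

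Markers of osteoclasts, which arise from the same progenitors and use PU.1, had a summed level of 147 FPKM untreated and 110, 88.5 and 60.4 FPKM with rising dose. This sum was lower with each dose, and Atp6v0d2 made up 94.6, 65.6, 45.9 and 22.7 FPKM of it. Of 6 measured osteoclast entries 2 were lower at 20 U/ml, with Atp6v0d2 at 22.7 against 94.6 FPKM and Mmp9 at 0.552 against 2.26. Ctsk was at 15.7 against 31.9 and Acp5 at 6.18 against 6.77. Nfatc1, the factor that drives osteoclast formation, was at 9.72 against 8.14 and Dcstamp at 3.78 against 3.15. Ocstamp, below the filter, was at 1.80 against 0.142. The summed dendritic cell markers went from 8.12 to 68.0 FPKM, of which the entry of Clec9a and Clec1b made up 47.1 at 20 U/ml, beside Batf3. Stromal and endothelial markers summed to 121, 136, 60.4 and 42.9 FPKM, nearly all of it Vwf, and erythroid and megakaryocyte markers to 473, 472, 251 and 195, nearly all of it Pf4, a gene that the MAF target list also holds. Neutrophil markers summed to between 40.3 and 57.7 over the groups, B cell markers to between 10.3 and 13.6, T and NK cell markers to between 1.31 and 3.41 and mast cell and basophil markers to between 0.711 and 1.72. The part of other cells in the values of the lineage factors was not tested.

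The genes whose ratios lay nearest to each factor over the 3 doses were sought among 7464 single-gene entries with a mean of at least 5 FPKM and a transcript of at least 200 nt, by Euclidean distance. The nearest transcription factor was sought apart from these, among the 56 other entries of the fixed transcription factor lists, merged entries and those of lower level included and the 8 factors themselves left out. Nearest to Bhlhe40 were Ankle1, a nuclease (12.9, 12.6, 11.2 and 5.63 FPKM with dose), Aacs, a cytosolic enzyme of acetoacetate use, and Kif23, a kinesin of cell division, at distances of 0.07 to 0.08, and the nearest transcription factor was Egr2 (0.26). Nearest to Maf were Ssbp3 (15.9, 23.7, 10.4 and 8.48 FPKM), Renbp and Cuedc2, and the nearest of the 56 transcription factor entries, Runx2, lay farther off at 0.79. Nearest to Zeb2 were Borcs7, Eif5 and Ndufb10, and then, among transcription factors, the Cebpg entry (0.40).

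Cebpb had Ctps, Larp1 and Tnf as nearest entries, at 0.06 to 0.08; Tnf, the inflammatory cytokine, was at 15.8, 21.4, 22.9 and 28.2 FPKM with dose. Its nearest transcription factor was Klf2 (0.23). Spi1 had Atp1b3 and Palld among its nearest, with Hhex (0.11). Cebpa had Arhgap31, Tulp4 and Bckdha, with Runx2 (0.08), Cebpd had Vbp1, Aldoc and Mex3d, with Klf4 (0.09), and Runx1 had Mrpl35, Lrch3 and Gna13, with Elf4 (0.22). Within a distance of 0.25 of Maf, Bhlhe40, Cebpb and Zeb2 lay 14, 40, 56 and 87 entries. For Runx1, Spi1, Cebpa and Cebpd the counts were 263, 417, 438 and 448. Ratios far from 0 have fewer entries around them, so these counts also follow the size of the ratios. They do not make a course rare: the shape of Maf and Zeb2 over the doses was found in 16.6% of all entries. With 3 ratios that all use the same untreated value, likeness of this kind is a description.

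The study also deposited a Cuffdiff comparison of conditions named untreated and treated, which names no dose. In the authors' deposited table all 8 factors had a q-value of 9.95e-05, the lowest it lists, with 7 higher and 1 lower in the treated condition. Of the 12854 entries tested there, 35.1% had a q-value under 0.05 and were higher, 33.8% were lower, and 50.3% shared that lowest q-value. Cebpb was higher by a log2 fold change of 4.41 in the authors' deposited table, Bhlhe40 by 3.26, Runx1 by 2.94, Cebpa by 2.60, Cebpd by 2.59, the Zeb2 entry by 1.45 and Spi1 by 1.43, and Maf was lower, at -2.69.

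Set beside the dose series, these values share the direction of the 20 U/ml ratios for Spi1, Cebpb, Runx1 and Maf and have the opposite direction for Cebpa, Cebpd, Bhlhe40 and Zeb2. Interferon target genes, looked up after the values of the factors were seen, differed widely between them. In the dose series Irf1 went from 34.1 FPKM untreated to 511 at 20 U/ml (log2 ratio 3.87), Gbp2 from 8.13 to 343 (5.24), Socs1 from 2.06 to 138 (5.51) and Ly6a from 18.1 to 1678 (6.46), while Il1b stayed under 1 FPKM. In the authors' deposited table Irf1 had a log2 fold change of 0.38 (q = 0.0747), Gbp2 0.28 (q = 0.310), Socs1 0.47 (q = 0.0790) and Ly6a -0.18 (q = 0.560) there, while Il1b was at 6.56 (q = 9.95e-05). The sources used here do not say which treatment the authors' deposited table compares, and its values were not used to support those of the dose series.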

How the data were processed

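RNA sequencing covered 12 libraries in 4 groups. Reads were processed with TopHat2 2.1.1, Cufflinks 2.1.1 and Cuffdiff 2.1.1 on mm10, per the submitters' processing notes. The authors deposited 1 FPKM value per entry and group, and the untreated column, which names no unit, was read as FPKM from its range. The deposited Cuffdiff table holds for each entry a log2 fold change with its test statistic (a score) and a p-value with its q-value, per the file headers. Its 2 value columns were left out, since no label ties them to a group.

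Values per library were not at hand, so the limma fit planned for that case was not made. Entries with a mean of at least 1 FPKM (11852) that were at 0 in no group (272 were) gave 11580. Log2 ratios used a pseudocount of 1. Alternatives were pseudocounts of 0.1 and 0.01, upper-quartile, quantile and equal-sum scaling, a smaller threshold and other filters. Named were all 8 factors, up to 4 entries of each family and 5 of each target list, those farthest from 0 in ratio at 20 U/ml, and 3 nearest entries and 1 transcription factor for each factor. Bhlhe41, Spib, Zeb1, Cebpe, Csf1r, Il10 and marker genes outside that rule were named after their values were seen. A few genes that the rule names are not reported here. Members and lists were chosen with earlier results of these data known. Positions and transcript lengths are from GENCODE M21, with a length for 96.7% of single-gene entries used. Python 3.11.15, NumPy 2.4.6 and pandas 2.3.3 were used, and the ratios and the size rule were tested on simulated data.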

Additional observations from a re-analysis of the deposited data

How the results depend on the processing

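No paired analysis was possible because the table holds 1 value per group, and leaving out a library was not possible for the same reason. Of 200 recomputed ratios of the 8 factors (5 alternatives for 3 doses and 2 steps), 196 kept their side of the 2-fold rule. The exceptions were Maf from 0.2 to 2 U/ml (-0.94 with quantile normalization, -0.80 with equal-sum scaling) and Bhlhe40 from 2 to 20 U/ml (-1.002 and -1.01 with pseudocounts of 0.1 and 0.01). In 14 a ratio changed sign, none of them past the rule. The median over the factors at 0.2 U/ml was -0.0421, -0.0749 and -0.32 under upper-quartile, quantile and equal-sum scaling, and at 20 U/ml -0.37 and -0.37 under the first pair. From 0.2 to 2 U/ml equal-sum scaling gave a median of 0.24. Scaling moved the median of all entries at 0.2 U/ml by -0.10, -0.10 and -0.35, and at 20 U/ml by -0.13, -0.08 and -0.07. Counts of factors lower from 0.2 to 2 U/ml were 0 and 0 with quantile and equal-sum scaling, and from 2 to 20 U/ml 1 and 1 with the smaller pseudocounts. With a 1.5-fold threshold, 1 factor was higher at 0.2 U/ml, and 2 were higher and 2 lower at 20 U/ml. At the steps, 2 were lower from 0.2 to 2 U/ml and 1 lower from 2 to 20 U/ml. The share of all entries past the 1.5-fold threshold was not counted, so these counts have no background to be read against. At 0.2 U/ml Maf (log2 ratio 0.59) passed this threshold and Zeb2 (0.58) fell just short of it. Upper-quartile scaling gave 629 entries higher and 473 lower at 20 U/ml, against 754 and 340 as deposited. Over all entries, the count lower at 0.2 U/ml was 38 as filtered, 147 with no filter, 106 with entries at 0 kept and 9 for entries of 1 gene of at least 200 nt. At 2 U/ml it was 88, 193, 154 and 51. From 0.2 to 2 U/ml 175 were higher and 296 with no filter. From 2 to 20 U/ml 336 were higher and 518 with no filter, and 128 lower, 248 with no filter and 203 with entries at 0 kept. With a pseudocount of 0.01, the counts lower were 76 at 0.2 U/ml, 192 at 2 U/ml, 572 at 20 U/ml and 276 from 2 to 20 U/ml, and 288 were higher from 0.2 to 2 U/ml. Alternatives for the steps were added after the data were seen. The depth and the spread between libraries are unknown, so no value here carries an error.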
